A study of Sus scrofa with 6 samples.

Results

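The genes described here move chloride, bicarbonate and sodium across the lining of the small intestine, and were read in RNA sequencing libraries labelled as jejunum, the middle part of the small bowel, from weaned Large White by Landrace piglets. They were chosen by symbol from a list of 10, of which 9 were found among the 24358 genes of the deposited table: CFTR, KCNE3, KCNQ1, SLC12A2, SLC26A3, SLC26A6, SLC9A2, SLC9A3 and GUCA2A. GUCY2C, the receptor of guanylin, was not analysed here. A transport group of 3 libraries, from piglets taken after a short-distance journey, was set against a control group of 3 libraries from piglets that were not transported. All piglets are labelled healthy, the libraries come from whole tissue labelled as jejunum, and nothing in the labels ties a library to its own animal, so the spread on which the p-values rest may be partly technical. Neither the age of the piglets nor the length of the journey or the delay to sampling is stated in these sources.

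Fluid secretion by the gut follows chloride. SLC12A2 loads chloride into the crypt cell from the blood side, potassium leaves again through channels such as KCNQ1 with its subunit KCNE3, and chloride and bicarbonate pass into the lumen through CFTR. Absorption runs the other way on the villus, where the sodium/proton exchangers SLC9A3 and SLC9A2 work beside the chloride/bicarbonate exchangers SLC26A3 and SLC26A6. Guanylin, encoded by GUCA2A, raises cyclic GMP in the enterocyte, which opens CFTR and slows SLC9A3, and the heat-stable enterotoxin of E. coli that causes diarrhoea in weaned piglets acts on the same receptor.

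The libraries held 48208451 to 53739246 counts, and counting error is small beside the widest differences between libraries for every member. It weighs more where SLC26A3 was low, with 26, 30 and 0 counts in transport 1, transport 2 and control 1. Transport 3 stood apart, with a median correlation of log2 CPM (counts scaled to library size) with the other libraries of 0.818, against 0.888 to 0.93 for each of the others. Its 7 ileal markers summed to 7010 FPKM (a level scaled to gene length and library size), against 97.1 to 215 in the other 5 libraries, and FABP6, the bile acid binding protein of the ileum, stood at 6836 FPKM in it and at 2.83 to 13.8 elsewhere. FABP6 thus made up most of this sum. SLC10A2, CUBN, FGF19 and NR1H4 were also highest in transport 3. SLC51A was little above the rest, at 31.4 FPKM against 29.5 FPKM in control 2, and SLC51B was lowest in transport 3, at 52.3 FPKM. Most of these values go against its label as jejunum, and whether it was taken from another segment was not tested. Each group mean and fold change that includes it may therefore mix segments. Its 6 general epithelial markers, which include EPCAM and KRT8, summed to 317 FPKM, against 997 to 1338 elsewhere. The 9 smooth muscle markers summed to 74.4 FPKM in control 2 and to 1048 to 2910 in the others. The 12 absorptive enterocyte markers summed to 3516, 7519 and 2430 FPKM in transports 1 to 3 and to 11786, 8825 and 6318 FPKM in controls 1 to 3. APOA1 gave 6038 FPKM of this sum in control 1 and 373 FPKM of it in transport 3. Of the 12 markers FABP1, FABP2 and APOA4, genes of fatty acid and lipoprotein handling, were lower without overlap and the peptidase ANPEP was higher. The others overlapped. Among them VIL1 had 136, 320 and 274 FPKM in transports 1 to 3 and 252, 309 and 232 FPKM in controls 1 to 3. SI had 21.8, 99.0 and 99.9 FPKM after transport and 51.4, 14.9 and 15.7 FPKM in controls. Of the 12012 genes tested, 4.19% were lower and 6.93% higher without overlap. Of the 6 colonic markers CA1, HOXB13 and HOXD13 were at 0 throughout.

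Of the genes of chloride secretion, CFTR, KCNE3 and SLC12A2 were lower in each transport library than in any control, while KCNQ1 overlapped between the groups. The absorptive exchangers and GUCA2A also overlapped, and their means lay on either side of the controls. None of the 9 genes passed the test over all genes. All 9 reached 1 FPKM in 3 or more of the 6 libraries and were among the 12012 genes tested with edgeR's quasi-likelihood test. No member passed an adjusted p of 0.05 in either direction, in edgeR, in DESeq2 or in limma. In the edgeR test 0.0167% of all genes were called higher and 0% lower. At an unadjusted p under 0.05, 0 members were higher and 1, KCNE3, was lower, where 3.52% and 1.61% of all genes were. The 9 adjusted p-values lay between 0.89 and 0.926 (edgeR, Benjamini-Hochberg).

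CFTR, the chloride and bicarbonate channel of the apical membrane, lies on the minus strand of chromosome 18 at 28627719 to 28817950 (ENSSSCG00000016626, coordinates as deposited). Its level was 4.98, 5.68 and 1.92 FPKM in transports 1 to 3, against 7.43, 8.33 and 10.02 FPKM in controls 1 to 3. The groups did not overlap, and transport 3 was lowest. The means were 4.19 ± 2.0 FPKM after transport and 8.59 ± 1.31 FPKM in controls (SD, n = 3 each), and the log2 fold change came to -1.05 (standard error 0.46; edgeR adjusted p = 0.89). Without transport 3 it was -0.71. Since whole tissue was sequenced, fewer cells that express a gene and less of its RNA per cell cannot be told apart.

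KCNE3, the small subunit that holds the KCNQ1 channel open in intestinal epithelium, is on the minus strand of chromosome 9 at 8810703 to 8822341 (ENSSSCG00000029323). It had 14.1, 9.52 and 3.88 FPKM in the transport libraries, against 17.9, 25.1 and 27.0 FPKM in the controls. Each transport value lay below the lowest control. This gave means of 9.16 ± 5.11 and 23.3 ± 4.80 FPKM (transport and control, SD, n = 3 each) and a log2 fold change of -1.38 with a standard error of 0.50, the most negative of the 9 (edgeR adjusted p = 0.89). It was -1.02 without transport 3 and -1.81 without transport 1.

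SLC12A2, the basolateral sodium, potassium and chloride cotransporter, is on the plus strand of chromosome 2 at 131016430 to 131109299 (ENSSSCG00000014255). Transports 1 to 3 had 13.0, 7.62 and 5.55 FPKM, and controls 1 to 3 had 13.2, 16.4 and 15.6 FPKM. The groups were parted only by the gap between transport 1 and control 1, which was far smaller than the spread within either group. The log2 fold change came to -0.84 (standard error 0.37; edgeR adjusted p = 0.89), and -0.59 without transport 3.

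KCNQ1, the potassium channel that KCNE3 binds, behaved otherwise. Its levels were 47.7, 56.2 and 9.01 FPKM after transport, against 71.3, 48.8 and 49.5 FPKM in controls. Transports 1 and 2 lay within or next to the control range, and transport 3 was far below all other libraries. The log2 fold change of -0.60 (standard error 0.66; edgeR adjusted p = 0.916) became -0.15 when transport 3 was left out, -1.07 without transport 2, -0.37 without control 1 and -0.98 with the replicate numbers as a block. The gene (ENSSSCG00000039556, chromosome 2, 1675304 to 1989503, plus strand) overlaps 5 other genes of the table, none of them with more than 9 counts in a library.

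Lower values without overlap between the groups were thus found in 3 of the 9 genes, and higher values without overlap in 0. Over all genes tested, 4.19% were lower and 6.93% higher by this rule. The members were chosen with earlier results of these libraries known, so nothing is read from the difference between these shares.

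**Figure D1:**
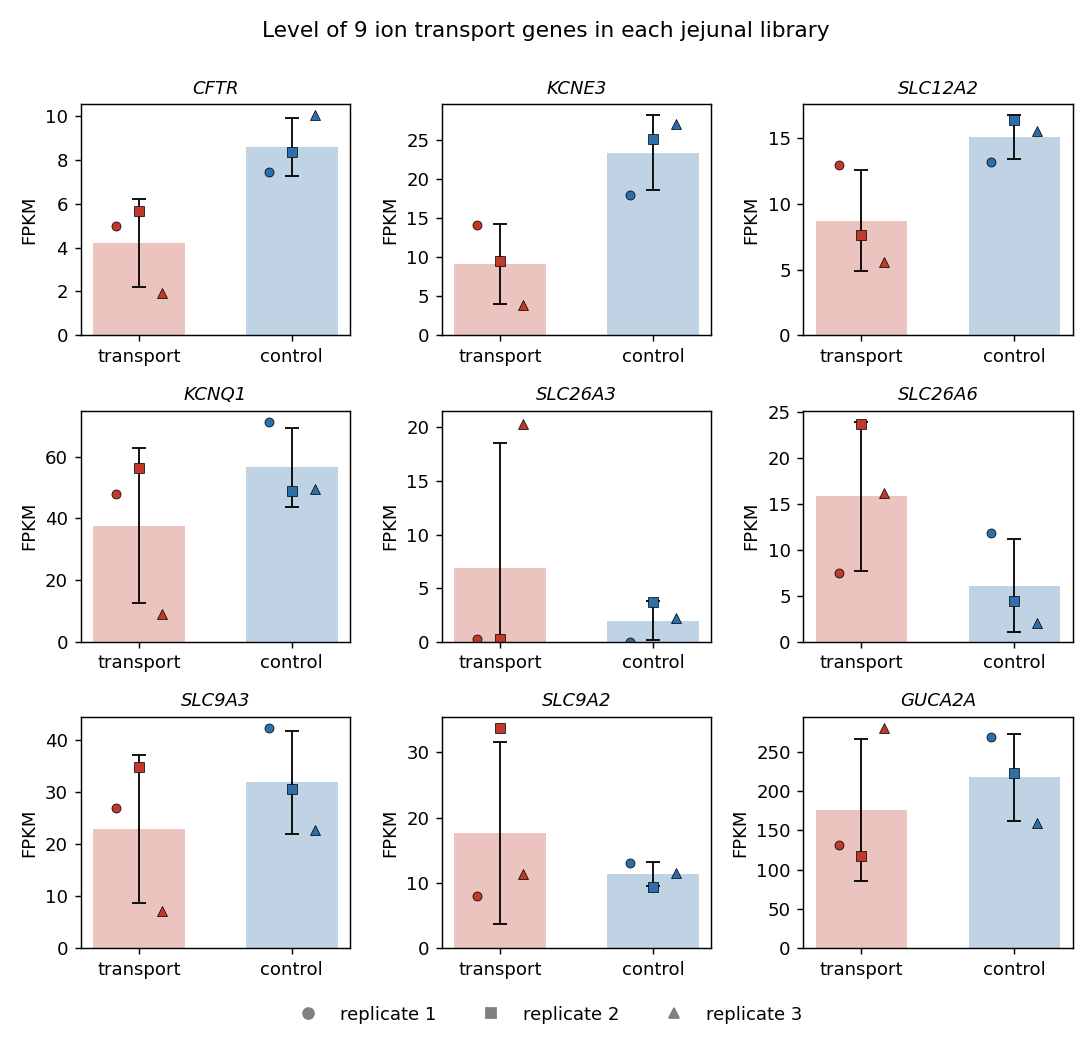
FPKM (vertical axes, each from 0) of the 9 genes in the transport and control libraries; points are libraries, shaped by replicate number, bars are means and whiskers the SD over 3 libraries. CFTR and KCNE3 sit lower in every transport library, while SLC26A3 is at 20.3 FPKM in transport 3 alone.

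The anion exchangers of the brush border differed more between libraries than between groups. SLC26A3, which takes up chloride in exchange for bicarbonate and is known for its high level in ileum and colon, had 0.208, 0.23 and 20.3 FPKM in transports 1 to 3, against 0, 3.68 and 2.25 FPKM in controls 1 to 3. The counts behind these values were 26, 30 and 2688 after transport and 0, 453 and 282 in controls. Transport 3, the library with ileal markers, was highest, and control 1 had no read, which allows up to 3 counts. The log2 fold change of 1.61 had a standard error of 2.05 (edgeR adjusted p = 0.926), and turned to -3.18 without transport 3 (edgeR adjusted p = 0.954). It was 1.03 without control 1 and 2.52 without control 2. The gene is ENSSSCG00000021813 on the minus strand of chromosome 9 at 107481541 to 107510620.

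SLC26A6, the exchanger of the proximal small intestine that also carries oxalate, had 7.53, 23.8 and 16.2 FPKM after transport, against 11.8, 4.48 and 2.03 FPKM in controls. Transports 2 and 3 were above all controls, and transport 1 was below control 1. Its log2 fold change came to 1.30 (standard error 0.73; edgeR adjusted p = 0.89) and was 0.78 without transport 2, 0.87 without control 3 and 2.23 without control 1. The gene lies on the minus strand of chromosome 13 at 31317846 to 31330600 (ENSSSCG00000011361). The FPKM ratio of SLC26A3 to SLC26A6 was 0.0277, 0.00976 and 1.25 in transports 1 to 3 and 0, 0.821 and 1.11 in controls 1 to 3, so in transport 3, control 2 and control 3 the exchangers were at levels of the same order, and in the other libraries SLC26A6 exceeded SLC26A3 many times over.

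Of the sodium/proton exchangers, SLC9A3 carries most of the sodium uptake not tied to nutrients. It had 26.9, 34.8 and 7.05 FPKM in transports 1 to 3, against 42.3, 30.5 and 22.8 FPKM in controls. The groups overlapped, and transport 3 was again far below the rest. The log2 fold change was -0.50 (standard error 0.62; edgeR adjusted p = 0.926) with all libraries, -0.08 without transport 3, -1.0 without transport 2, -0.22 without control 1 and -0.78 with the replicate numbers as a block. It is encoded on the plus strand of chromosome 16 at 79625262 to 79703497 (ENSSSCG00000039413).

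SLC9A2, the second apical sodium/proton exchanger, had 7.98, 33.7 and 11.4 FPKM after transport, against 13.1, 9.41 and 11.4 FPKM in controls. Transport 2 stood alone at the top, and the other 5 libraries were close together. Its log2 fold change of 0.63 (standard error 0.58; edgeR adjusted p = 0.906) rested on that library and was -0.36 without it, 0.98 without transport 1 and 0.28 with the replicate numbers as a block. The gene (ENSSSCG00000008153) is on the minus strand of chromosome 3 at 51531894 to 51623287. Within a library, the FPKM ratio of SLC9A3 to SLC9A2 was 3.38, 1.03 and 0.621 in transports 1 to 3 and 3.23, 3.24 and 1.99 in controls 1 to 3. The ratio was thus low in transports 2 and 3, through a high SLC9A2 in transport 2 and a low SLC9A3 in transport 3, while transport 1 was like the controls. A ratio of this kind does not depend on how libraries are scaled.

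GUCA2A, the gene of the hormone guanylin, was the most abundant of the 9. Its levels were 132, 117 and 280 FPKM in transports 1 to 3, against 270, 223 and 160 FPKM in controls. Transports 1 and 2 were below all controls and transport 3 was above them all. Its log2 fold change came to -0.42 (standard error 0.39; edgeR adjusted p = 0.906), and -0.85 without transport 3, -0.63 without control 3, -0.26 without transport 1, -0.24 without transport 2 and -0.21 without control 1. It lies on the plus strand of chromosome 6 at 169138077 to 169148286 (ENSSSCG00000003969). GUCA2B, which encodes the related hormone uroguanylin, had 65.2, 28.0 and 118 FPKM after transport and 98.04, 49.4 and 28.9 FPKM in controls, and was likewise highest in transport 3. Its log2 fold change of 0.12 was -0.41 without transport 3 and -0.23 without control 3.

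**Figure D2:**
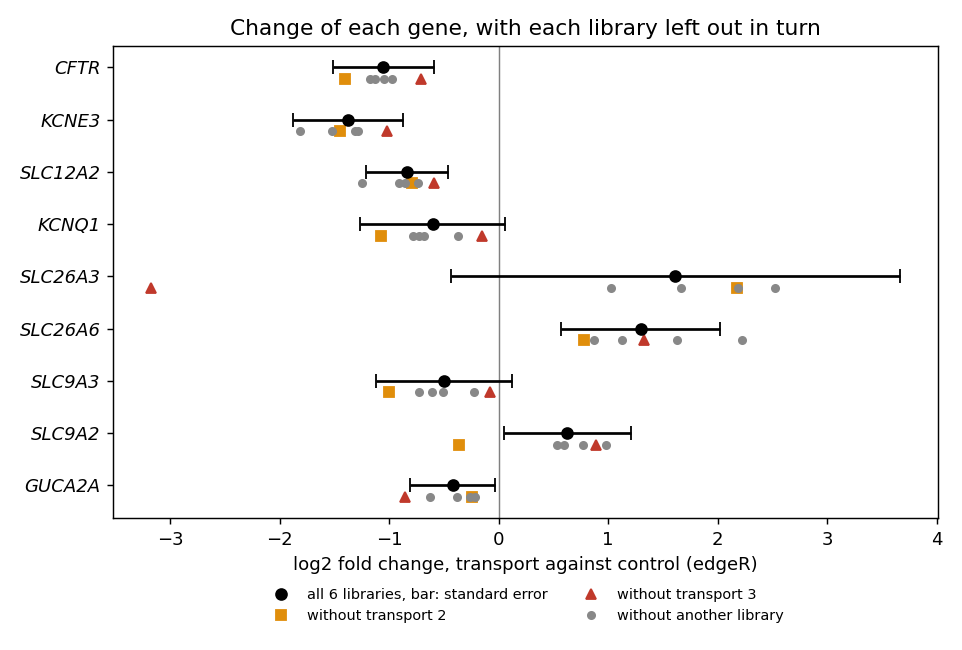
Log2 fold change of each gene, transport against control, from edgeR (horizontal axis); black points are all 6 libraries with the standard error, and the smaller points below them are the fits with 1 library left out. CFTR, KCNE3, SLC12A2, KCNQ1, SLC9A3 and GUCA2A stay below 0 in each fit, and SLC26A6 stays above 0. SLC26A3 changes sign without transport 3 (-3.18) and SLC9A2 without transport 2 (-0.36).

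FPKM is scaled to length, so levels can be ordered between genes. After transport the order of mean FPKM was GUCA2A, KCNQ1, SLC9A3, SLC9A2, SLC26A6, KCNE3, SLC12A2, SLC26A3 and CFTR, and only GUCA2A was separated from its neighbour, with every other adjacent pair overlapping in range. In controls the order was GUCA2A, KCNQ1, SLC9A3, KCNE3, SLC12A2, SLC9A2, CFTR, SLC26A6 and SLC26A3. There the ranges of GUCA2A and KCNQ1, KCNQ1 and SLC9A3, KCNE3 and SLC12A2, and SLC12A2 and SLC9A2 did not overlap, and those of the other 4 adjacent pairs did. The spread between the lowest and the highest library was 5.21-fold for CFTR and 6.97-fold for KCNE3.

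Across libraries some of the genes varied alike and others did not. The distance between a pair of genes was taken as the root mean square difference of their log2 CPM, each centred over the 6 libraries. The closest pair was KCNQ1 and SLC9A3 at 0.227, a potassium channel and a sodium exchanger, followed by CFTR and KCNE3 at 0.296 and CFTR and SLC12A2 at 0.389. All of these share the low value of transport 3. Transport 3 held the lowest value of the 6 libraries for 5 of the 9 genes, CFTR, KCNE3, KCNQ1, SLC12A2 and SLC9A3, and the highest for SLC26A3 and GUCA2A. Transport 2 held the highest for SLC26A6 and SLC9A2. SLC26A3 was the gene least like the rest, at distances of 3.29 or more from every other member. The member nearest to GUCA2A was SLC12A2 at 0.790. For SLC9A2 it was SLC9A3 at 0.935, and for SLC26A6 it was SLC9A2 at 0.957. Among all other tested genes with a symbol, those nearest to CFTR by the same distance were ANO8 (0.129), TRIM36 (0.137), LPCAT3 (0.162), HYAL1 (0.165) and CUEDC1 (0.177). Those nearest to SLC9A3 were GK5 (0.0776), GSTK1 (0.103), DGAT1 (0.129), ARSD (0.162) and SLC19A1 (0.168). All of these lay nearer to CFTR or SLC9A3 than any other member did, so such closeness is not particular to the members.

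**Figure D3:**
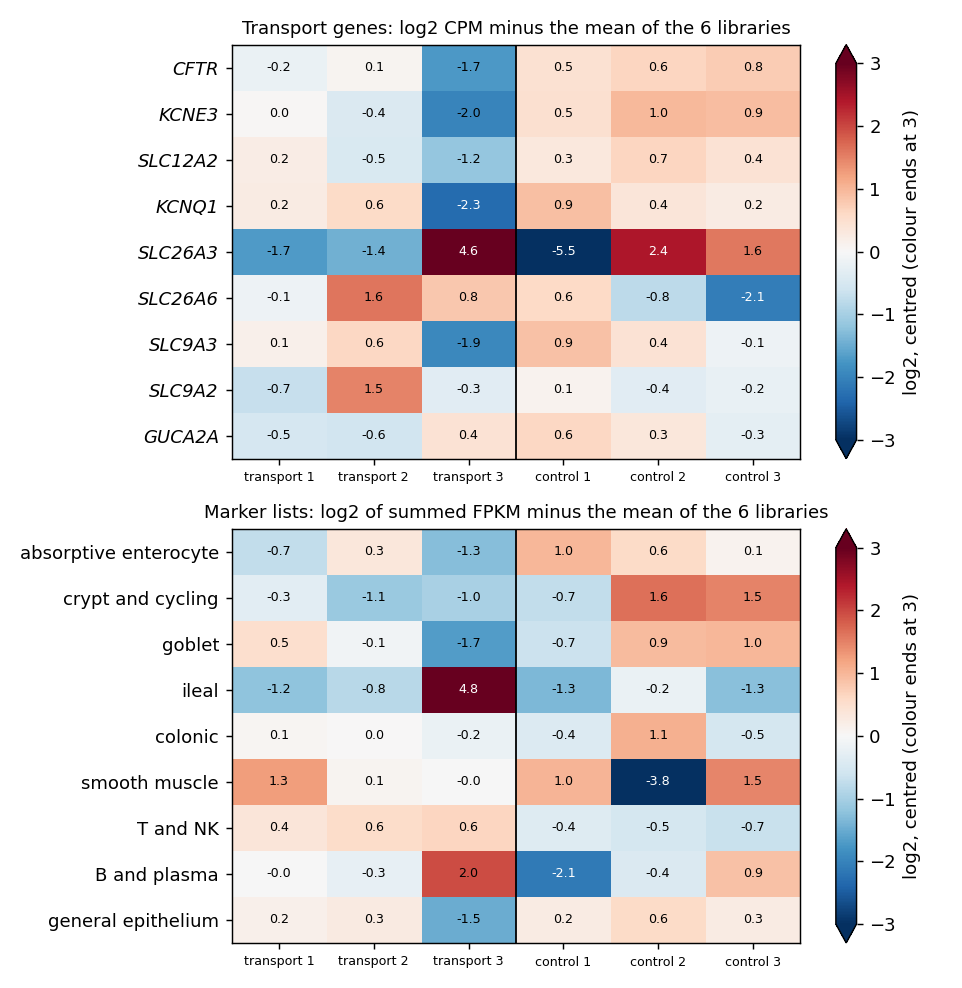
Heat maps over the 6 libraries (columns, transport left of control) of the centred log2 CPM of the 9 genes (above) and of the centred log2 summed FPKM of 9 marker lists (below), with each value printed in its cell. Transport 3 is low for CFTR, KCNE3, SLC12A2, KCNQ1 and SLC9A3 and for the general epithelial markers, and high for SLC26A3 and the ileal markers.

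Because general epithelial markers were low in transport 3, the genes were also set against their sum, a scaling chosen after the values were seen. Of these markers CDH1 was itself lower without overlap, and the others overlapped. CDH1 had 63.7, 48.4 and 41.8 FPKM in transports 1 to 3 and 80.9, 128 and 135 FPKM in controls 1 to 3. Per 1000 FPKM of these markers, CFTR had 4.99, 5.31 and 6.07 FPKM in transports 1 to 3, against 6.98, 6.23 and 9.39 FPKM in controls 1 to 3. On the same scale KCNE3 had 14.1, 8.89 and 12.2 FPKM after transport and 16.8, 18.7 and 25.3 FPKM in controls. Both were still lower without overlap, as were 0.549% of all genes on that scale, where 15.2% were higher and 0 members were. This scale shifts genes upward after transport: over genes above 0 in all libraries the median log2 difference was 0.83, against 0.11 in FPKM as deposited. Nothing is therefore read from these shares. For CFTR only transport 3 at 6.07 against control 2 at 6.23 parted the groups. Transport 3 no longer stood apart for either gene. SLC12A2, at 13.0, 7.12 and 17.5 FPKM per 1000 FPKM after transport and 12.4, 12.3 and 14.6 FPKM in controls, overlapped. KRT8 made up 52.7% to 68.3% of the marker sum. Against each of the 6 markers singly, CFTR was lower without overlap for 1 (ELF3), KCNE3 for 2 (KRT8 and ELF3) and SLC12A2 for 0.

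Markers of crypt cells, where CFTR and SLC12A2 are mostly made, also differed between libraries. The 13 crypt and cycling genes summed to 767, 442 and 488 FPKM in transports 1 to 3 and to 572, 2984 and 2663 FPKM in controls 1 to 3. OLFM4, a marker of the crypt base, gave 637, 366 and 144 FPKM of this after transport and 417, 2807 and 2448 FPKM in controls. Without OLFM4 the other 12 summed to 130, 76.1 and 344 FPKM in transports 1 to 3. In controls this sum was 154, 177 and 216 FPKM. Transport 3 was thus highest, with the cycling genes PCNA at 134 FPKM and TOP2A at 82.2 FPKM. The crypt genes SMOC2, ASCL2 and LGR5 were lowest in it, at 6.61, 0.645 and 0.372 FPKM. Its B and plasma cell markers summed to 648 FPKM, against 38.7 to 308 FPKM elsewhere. Of these MS4A1 was at 164 FPKM, while JCHAIN, at 17.9 FPKM, was lowest in transport 3. Which cells the cycling RNA came from was not tested. Of the 12 crypt and cycling genes tested, EPHB2 and SMOC2 were lower without overlap, where 4.19% of all genes tested were. Control 1 was low in OLFM4 beside controls 2 and 3 and had the lowest control values of CFTR, KCNE3 and SLC12A2. Transport 1 had more OLFM4 than control 1, at 637 against 417 FPKM, and lower values of CFTR, KCNE3 and SLC12A2. The T and NK cell markers summed to 108, 124 and 131 FPKM after transport and 64.7, 58.6 and 52.9 FPKM in controls. Of these, 10 of 12 were higher without overlap, where 6.93% of all genes tested were. The part of these cell types in the levels of the ion transport genes was not tested.

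A wider list of ion transport genes held 83 symbols, of which 77 were in the table and 52 were tested, and the members are not among them. In edgeR's test 0 were called in either direction, as in DESeq2 and limma, with edgeR adjusted p-values from 0.89 to 0.998. At an unadjusted p under 0.05, 4 were higher and 1 lower, where 3.52% and 1.61% of all genes tested were. The median log2 fold change was -0.18, with 20 values above and 32 below 0, against a median of 0.07 over all genes tested. Without overlap, 4 were higher and 3 lower, a share near that of all genes (6.93% and 4.19%). By role, the median log2 fold change was -0.25 over 6 apical anion channels and exchangers, 0.26 over 7 genes of bicarbonate transport, -0.16 over 11 of sodium transport, 0.15 over 10 of the basolateral potassium and chloride pathways, -0.19 over 13 of receptor and cyclic nucleotide signalling and -0.41 over 5 aquaporins.

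Among receptors that drive secretion, CHRM3, the muscarinic receptor for acetylcholine, had 1.67, 0.707 and 0.946 FPKM in transports 1 to 3 and 2.03, 3.26 and 2.52 FPKM in controls (log2 fold change -1.30, standard error 0.46; edgeR adjusted p = 0.89). VIPR1, a receptor of vasoactive intestinal peptide, was on the other side, at 10.8, 10.2 and 8.53 FPKM after transport and 3.24, 3.72 and 7.67 FPKM in controls (log2 fold change 0.98, standard error 0.36; edgeR adjusted p = 0.89). Neither overlapped between groups. PTGER4, a prostaglandin receptor outside the naming rule, was also lower without overlap and was picked after its values were seen. Its mean was 4.73 ± 2.68 FPKM after transport and 8.70 ± 0.823 FPKM in controls (SD, n = 3 each), with transport 3 lowest at 1.63 FPKM. The log2 fold change of PTGER4 was -0.90 (standard error 0.54, edgeR adjusted p = 0.89). PTGER2, another prostaglandin receptor, overlapped between the groups, with a log2 fold change of -0.05. ADCY6, an adenylyl cyclase, and PRKG2, the cyclic GMP-dependent kinase that acts on CFTR and SLC9A3, had log2 fold changes of -0.38 and 0.18, and that of PRKG2 was -0.36 without transport 2. ADCY6 was at -0.77 without transport 1, -0.16 without transport 3 and -0.22 without control 2.

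On the blood side of the cell, WNK1, a kinase that switches SLC12A2 on and potassium-chloride cotransporters off, reached 24.0 FPKM in transport 3 and stayed between 2.85 and 7.91 FPKM in every other library. OXSR1, a kinase that WNK1 activates, was picked after its values were seen. It was higher without overlap, at 10.7 ± 1.65 FPKM after transport and 8.47 ± 0.619 FPKM in controls (SD, n = 3 each). The groups were parted only by transport 2 at 9.03 FPKM against control 2 at 8.86 FPKM. Its log2 fold change was 0.27 (standard error 0.22, edgeR adjusted p = 0.902). The kinases STK39 and WNK4 overlapped between the groups, with log2 fold changes of -0.26 and -0.24. SLC4A7, a sodium bicarbonate cotransporter, had 6.99, 5.64 and 5.69 FPKM after transport and 4.30, 2.56 and 3.50 FPKM in controls (log2 fold change 0.76, standard error 0.29; edgeR adjusted p = 0.89), with no overlap. SLC4A4, which brings in bicarbonate with sodium, had a log2 fold change of -0.43, the potassium channel KCNN4 -0.72 and the potassium and chloride cotransporter SLC12A7 0.09, which was negative without transport 2 (-0.12). SLC4A4 was at -1.15 without transport 2, -0.25 without transport 1 and -0.14 without transport 3, and KCNN4 at -0.42 without transport 3, -1.12 without control 1 and -0.23 without control 2. ATP1B1, a subunit of the sodium pump, had 0.40, and turned negative without transport 2 (-0.14).

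Other apical and surface genes gave few differences between groups. BEST4, an anion channel that marks a rare CFTR-rich cell of the human gut, had 4.08, 3.76 and 7.13 FPKM after transport and 8.53, 8.57 and 5.51 FPKM in controls, with transport 3 above control 3. SLC26A2, a sulfate carrier of the SLC26A3 family, had a log2 fold change of -0.76, CLCA1, a goblet cell protein that modulates chloride currents, -0.33, and the calcium-activated chloride channel ANO1 -0.02. PDZK1, a scaffold that binds SLC9A3 at the brush border, had -0.19 and SGK1, a kinase that stimulates sodium uptake, -0.39. SGK1 ran from -0.91 without transport 2 to -0.06 without control 1, with a library left out, and SLC26A2 was at -1.19 without transport 3 and -0.43 without control 1. CLCA1 turned positive without control 2 (0.21), PDZK1 without transport 1 (0.094) or control 1 (0.087), and ANO1 without transport 2 (0.27), transport 3 (0.30) or control 1 (0.84). CA2 and SCNN1A were below the filter, at most at 1.10 and 2.23 FPKM.

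CA4, a membrane-bound carbonic anhydrase, followed the order of SLC26A3 in part: it had 0.254, 0.189 and 7.93 FPKM in transports 1 to 3 and 0.395, 1.46 and 3.20 FPKM in controls 1 to 3. Both were highest in transport 3, intermediate in controls 2 and 3, and low in transports 1 and 2 and control 1. AQP10, a water and glycerol channel, was placed the other way, at 15.5, 63.7 and 0.099 FPKM in transports and 122, 4.13 and 4.81 FPKM in controls, lowest in transport 3 and highest in control 1. The log2 fold change of CA4 was 0.58, and -2.88 without transport 3. AQP8, another water channel, was at 20.4 to 27.8 FPKM after transport and at 20.3, 56.3 and 18.5 FPKM in controls 1 to 3. All 5 tested aquaporins had negative log2 fold changes, from -0.73 to -0.19, each with overlap between the groups, and that of AQP8 was positive without control 2 (0.35) and that of AQP10 without control 1 (2.62).

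**Figure D4:**
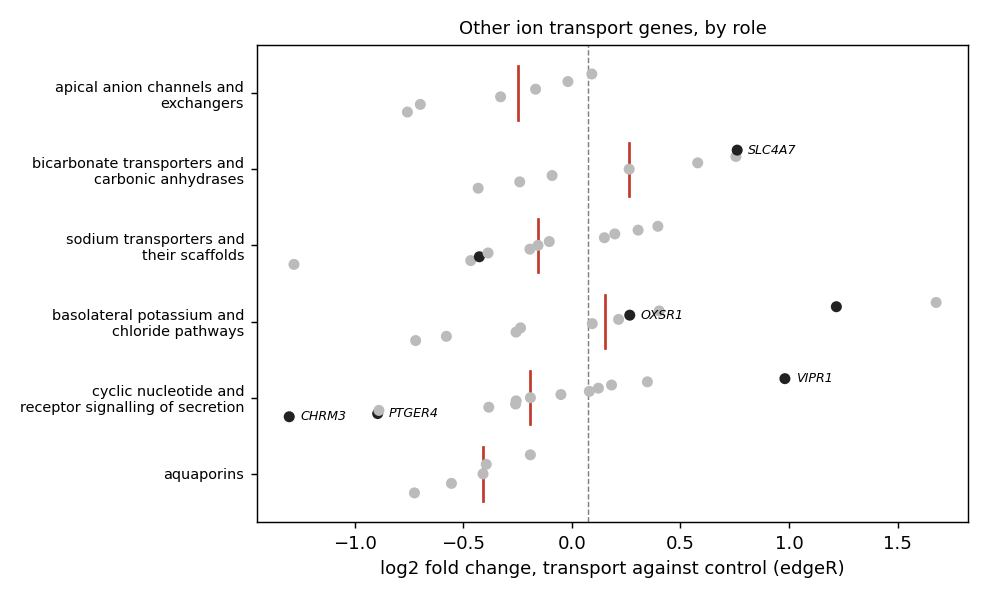
Log2 fold changes, transport against control, of 52 tested ion transport genes (points) grouped by role (vertical axis); red lines are group medians, the dashed line is the median of all genes tested (0.07), and dark points, most of them named, had no overlap in FPKM between the groups. No point passed the adjusted threshold.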

How the data were processed

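RNA was sequenced from 6 jejunal samples, and per the labels' protocols it was extracted with Trizol and made into libraries by standard Illumina protocols. Per the file headers, the authors deposited a count per gene and library, as whole numbers without normalization, and an FPKM, which they scaled to transcript length and library size. A count of 0 is written there with a placeholder FPKM and was read as 0. Of the aligner, counting tool, strand setting and genome build, none is given in the sources used here. Counts may be rounded estimates. The table's transport columns carry a prefix that the labels do not use, and were matched by group and replicate number. A gene name table supplied symbols for 951 of the 6907 rows named only by identifier, and no member was among these.

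The test took genes that reached 1 FPKM in 3 or more of the 6 libraries, with edgeR 4.0.16 (quasi-likelihood, TMM scaling, group only, R 4.3.3), with Benjamini-Hochberg adjustment over all 12012 genes and a threshold of 0.05. Standard errors were derived from the F statistic. DESeq2 1.42.0, limma 3.58.1 on log2(FPKM + 1) and log2(FPKM + 0.1), other scalings, other filters and each library left out were alternatives. The fit was checked on simulated data with 200 changed genes. Their changes were set larger than that of any member in the fit of all 6 libraries. The check thus cannot tell whether changes of the members' size would be called. Log2 CPM used a prior count of 2.

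The members and lists were chosen with earlier results of these data known. All members were named, and of the wider list, which holds old and new symbols of the same gene in places, the 6 genes of smallest p and a fixed set, of which a few are counted but not reported by name here. For CFTR and SLC9A3 the 5 nearest genes were named. As a check of pairing, each library's departures from its group mean were correlated across genes: r was 0.217, 0.111 and 0.187 between libraries of equal replicate number and -0.261 to 0.101 otherwise. The values for equal numbers were thus the higher ones. With 3 libraries a group there are few ways to match them, so this check cannot decide whether libraries are paired. The labels give the numbers no meaning. The fit was unpaired, with the replicate block as an alternative.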

Additional observations from a re-analysis of the deposited data

How the results depend on the processing

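None of the 9 members and none of the 52 other ion transport genes passed the threshold under any alternative that was run, and the lowest adjusted p of a member was 0.38, for KCNE3 in DESeq2. Counts over all genes did move. Against 2 genes higher and 0 lower in edgeR, DESeq2 called 27 and 23, limma on log2(FPKM + 1) called 1 higher, limma on log2(FPKM + 0.1) 4 higher and 1 lower, edgeR with a mean FPKM of at least 5 called 1 higher, and edgeR without both control 2 and transport 3 called 1 higher. With 1 library left out the counts ran from 0 to 2 higher and from 0 to 1 lower. With the replicate block 2 were higher and 0 lower, and no call of a named gene changed. The block moved SLC9A2 to 0.28, KCNQ1 to -0.98 and SLC9A3 to -0.78, and the other members by less than 1.5 times.

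Of the members, CFTR (-1.40 to -0.71), KCNE3 (-1.81 to -1.02), SLC12A2 (-1.24 to -0.59), KCNQ1 (-1.07 to -0.15), SLC9A3 (-1.0 to -0.08), GUCA2A (-0.85 to -0.21) and SLC26A6 (0.78 to 2.23) kept the sign of their log2 fold change with any 1 library left out. SLC26A3 ran from -3.18 to 2.52 and SLC9A2 from -0.36 to 0.98. Without both control 2 and transport 3, SLC26A3 was at -2.22. Per summed epithelial FPKM, where the median of all genes was 0.83, SLC9A3 was at 0.0048 and GUCA2A at 0.34. On that scale CFTR was at -0.45 and KCNE3 at -0.79. The causes of these sign changes were not tested beyond the libraries named.

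Among the wider list, leaving out 1 library gave ANO1 -0.95 to 0.84, AQP10 -2.57 to 2.62, AQP8 -0.70 to 0.35, ATP1B1 -0.14 to 0.59, CA4 -2.88 to 1.34, CLCA1 -0.72 to 0.21, GUCA2B -0.41 to 0.73, PDZK1 -0.59 to 0.094, PRKG2 -0.36 to 0.40 and SLC12A7 -0.12 to 0.22. Without both control 2 and transport 3, ADCY6 was at 0.038, AQP8 at 0.52, CA4 at -2.91, CLCA1 at 0.39, GUCA2B at -0.48 and KCNN4 at 0.11. With limma on log2(FPKM + 1) and log2(FPKM + 0.1), ANO1 was at 0.10 and 0.37 and CA4 at -0.038 and -0.54. With the replicate block ANO1 was at 0.35 and CA4 at -0.75. With 3 libraries a group, the spread between libraries limits these comparisons more than depth does.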
